A study of Sus scrofa with 9 samples.

Results

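The genes described here encode the subunits of the oxidative phosphorylation complexes that the nuclear genome specifies, together with 8 complex I assembly factors of the NDUFAF series and 2 proteins, ATP5S and ATP5SL, whose symbols group them with ATP synthase. They were chosen by symbol alone, as every gene whose name begins with NDUFA, NDUFB, NDUFC, NDUFS, NDUFV, UQCR, COX4 to COX8 or ATP5, or equals SDHA, SDHB, SDHC, SDHD or CYC1. This gave 78 of 18933 genes when Obese-MSCs were compared with Lean-MSCs, and 77 of 18992 genes in the comparison of vitamin-C-treated with untreated Obese-MSCs, where NDUFB11 was not analysed. By respiratory complex, the 78 genes were 37 of complex I, 4 of complex II, 2 of complex III, 10 of complex IV and 15 of complex V, beside the 8 assembly factors and the 2 associated proteins. Several well-known subunits, such as CYC1, UQCRC1 and COX4I1, were not analysed here.

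Oxidative phosphorylation takes electrons from NADH and succinate through complexes I to IV of the inner mitochondrial membrane, pumps protons across it, and uses the resulting gradient to make ATP at complex V. Most subunits are encoded in the nucleus and imported, while a small core is encoded by mitochondrial DNA, so the nuclear genes are the ones on which a nuclear DNA mark can act. The mark measured was 5-hydroxymethylcytosine (5hmC), which the TET dioxygenases make from 5-methylcytosine. Vitamin-C is a cofactor that supports TET activity.

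Mesenchymal stem/stromal cells (MSCs) were grown from the subcutaneous abdominal fat of female domestic pigs, 3 months old when the diets began. Lean pigs received standard chow, and Obese pigs a high-fat/high-fructose diet for 16 weeks. The 3 Lean libraries (Lean 7, 8 and 9) and the 3 untreated Obese libraries (Obese 1, 2 and 3) came from MSCs without added vitamin-C. The growth medium itself contained some ascorbic acid phosphate, so the untreated MSCs were not free of vitamin-C. The 3 treated libraries (Treated 4, 5 and 6) came from Obese-MSCs given vitamin-C at 50 µg/mL for 48 h after the third passage. The cells were expanded in platelet lysate before the DNA was taken, so both diets are compared after weeks in the same culture medium. The labels do not tie a library to a pig or a treated culture to an untreated one, and the p-values therefore measure only the spread between these libraries.

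In hydroxymethylated DNA immunoprecipitation sequencing (hMeDIP-seq), sheared DNA carrying 5hmC is captured with an antibody and sequenced. The value of a gene is the number of captured reads over its exons after normalization, in normalized counts, and it is neither divided by exon length nor a measure of expression. Levels of different genes are therefore not ranked. The 2 comparisons were normalized separately, and the same untreated library read 1.10 to 1.13 times higher in the second, so values were compared only within a comparison. A library's total over all genes was 494566 to 522269 normalized counts in the first and 547242 to 593846 in the second. Low values gathered to differing degrees near whole multiples of a step that differed between libraries, with 39.5% to 100% of values from 0.3 to 10 within 0.1 of a multiple. The number of exonic reads behind a value is therefore not known. Values of surface genes are given for the comparison of diets only. Of those used to define MSCs, ENG was 52.7, 67.4 and 52.0 in Obese 1, 2 and 3 against 51.7, 37.7 and 31.9 in Lean 7, 8 and 9. THY1 lay between 12.4 and 25.1, and NT5E between 16.2 and 35.9. CD34 and PTPRC, which MSCs do not display, also carried exonic 5hmC, at 13.4 to 23.8 and 35.9 to 68.5, while CD14 was at 0 in the 3 Lean libraries and 0.650, 0.924 and 4.49 in the Obese ones. Because exonic 5hmC is not expression, these values do not test the cell type, and the part of ENG and CD14 in the differences below was not tested.

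Many of these genes carried few normalized counts. In the comparison of diets, 28 of the 78 genes (35.9%) had means of 3 normalized counts or less in both groups, against 13.3% of all genes, and 45 passed the filter that kept the upper 80% of all genes by mean. Between 27 and 37 of the 78 genes were at 3 normalized counts or less in any single library. At this level and somewhat above it the values repeat: NDUFA1, NDUFB4 and NDUFB11 had the same values in Obese 1, 2 and 3, at 0.775, 0.952 and 0.0240. In the comparison of vitamin-C, NDUFS5 and COX6C had the same values in Treated 4, 5 and 6, at 4.02, 3.73 and 0.814. The highest value in such a repeat among these genes was 5.30. No fold change is given where both groups were at 3 or less. The genes are short, with a median span of 7937 bp in the assembly Sscrofa11.1 against 21610 bp over 18914 genes, and 77 of them had a unique position, spread over 18 chromosomes, with NDUFA1 and NDUFB11 on X. Across these 77 genes the mean level had a Spearman rho of 0.382 with the span, which is a description across genes that share libraries. In 23 cases the span overlapped another annotated gene, so that exonic reads may not be separable. NDUFB10, for example, lies at chr3:40003109-40005650 and overlaps RPS2 and RPL3L.

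**Figure D1:**
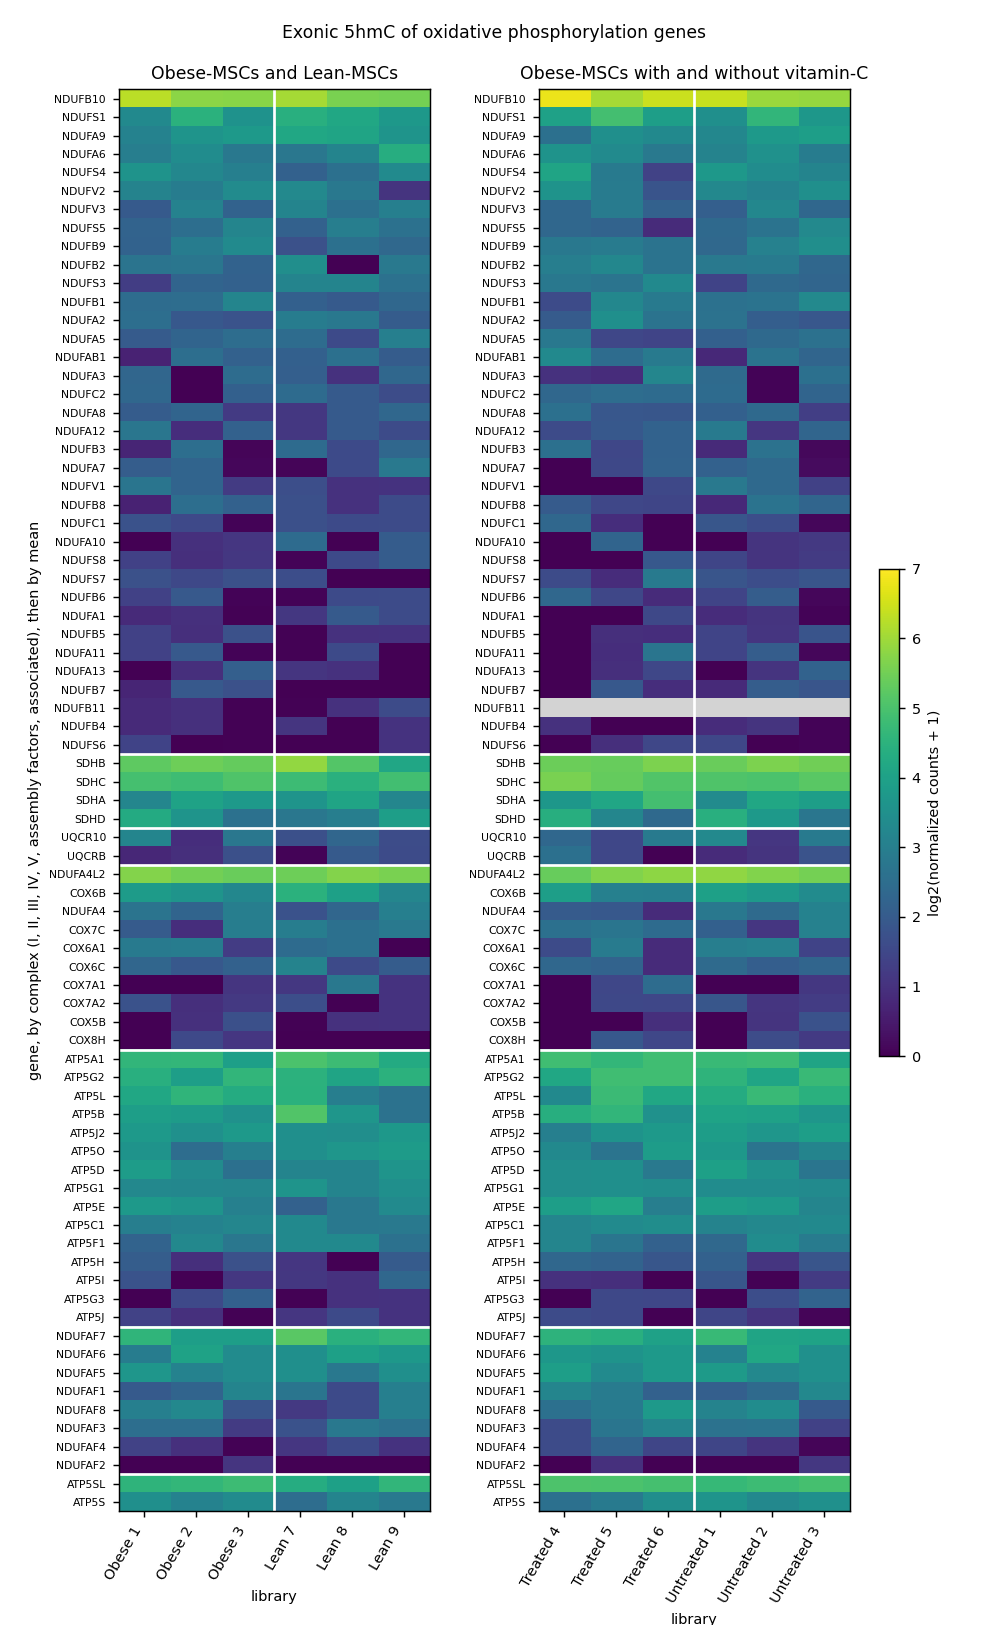
Exonic 5hmC as log2(normalized counts + 1) for the genes shown (rows, grouped by complex I, II, III, IV and V, assembly factors and associated proteins, separated by white lines) in each library (columns), Obese-MSCs and Lean-MSCs on the left and treated and untreated Obese-MSCs on the right. Most rows are dark, at or near the level of 3 normalized counts, NDUFB11 has no values on the right, and none of complexes I to V is brighter in all libraries of a group.

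The first question was whether obesity in the donor pigs went with another 5hmC level over these genes. The directions were evenly divided: of the 45 genes that passed the filter, 22 had higher means in Obese-MSCs and 23 had lower means. Their median log2 ratio of group means was -0.01, beside 0.01 over the 15146 genes that passed. It was -0.16 for the 14 of these genes whose mean lay in the upper 50%, beside 0.02 over all genes in that range. Summed over all 78 genes, 5hmC was 690, 669 and 607 normalized counts in Obese 1, 2 and 3 and 763, 617 and 634 in Lean 7, 8 and 9. The groups overlapped, with means of 655 ± 43.0 for Obese and 671 ± 79.8 for Lean (SD, n = 3). The direction of this small difference depended on single libraries, since the ratio of Obese to Lean means was 0.976 with all 6 of them, 1.05 without Lean 7 and 1.01 without Obese 3.

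Genes were called high or low in 5hmC by a two-sided equal-variance test at an unadjusted p of at most 0.05 together with a ratio of means of at least 1.4 or at most 0.7. These thresholds are the study's own. By diet, the paper reports more genes high and more genes low than they called here, so the shares below are not the paper's. In Obese-MSCs versus Lean-MSCs, 2 of the 78 genes were called, NDUFB7 high and NDUFS3 low, while 4.5% of all genes were called, 2.07% high and 2.43% low. The 6 values of a gene separated completely by group in 4 of the 78 genes (5.13%), against 11.8% of all genes. These were NDUFB7 and NDUFB1, higher in Obese-MSCs (5.7% of all genes separated in this direction), and NDUFS3 and NDUFA1, lower in them (6.06% of all genes). NDUFA1 is named because its values separated. With limma on log2(value + 1), none of the 45 genes passed a Benjamini-Hochberg adjusted p of 0.05, as was true of all 15146 genes, and the smallest adjusted p among the 45 was 0.694. At an unadjusted limma p of 0.05 there were 2 of the 45, NDUFS3 and ATP5L (4.44%), beside 6.81% of all genes.

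NDUFS3 encodes a core subunit of the arm of complex I that reaches into the matrix, and lies at chr2:15031147-15036880, where its span overlaps that of KBTBD4. Its 5hmC level was 1.41, 3.81 and 3.50 normalized counts in Obese 1, 2 and 3 and 7.88, 7.95 and 5.16 in Lean 7, 8 and 9. Every Lean library was above every Obese library. The means were 2.90 ± 1.31 and 6.99 ± 1.59 (SD, n = 3), a log2 ratio of -1.27, with an exact permutation p of 0.1, the smallest that 3 libraries against 3 allow. The limma adjusted p was 0.708. The log2 ratio stayed between -1.51 and -0.94 when each library was left out in turn. The call itself was kept without Obese 2 (-1.51) and without Lean 9 (-1.45) and lost without Obese 1 (-0.94), Obese 3 (-1.42), Lean 7 (-1.17) or Lean 8 (-1.17).

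NDUFB7, an accessory subunit on the intermembrane side of complex I, was called high on very low values. It was 0.651, 2.87 and 2.33 in Obese 1, 2 and 3 and 0 in each Lean library, so all 6 values lay under 3 normalized counts and no fold is given. The call was lost when Obese 2, Obese 3 or any Lean library was left out. NDUFB1, another accessory subunit, was 4.54, 4.72 and 8.08 in Obese-MSCs and 3.41, 2.98 and 4.10 in Lean-MSCs. Its groups did not overlap, with a log2 ratio of 0.72 that dropped to 0.41 without Obese 3, an exact permutation p of 0.1 and a limma adjusted p of 0.874. NDUFA1, which anchors in the membrane arm, was 0.775, 0.952 and 0.0240 in Obese-MSCs against 1.19, 2.98 and 2.06 in Lean-MSCs, under 3 in all libraries.

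**Figure D2:**
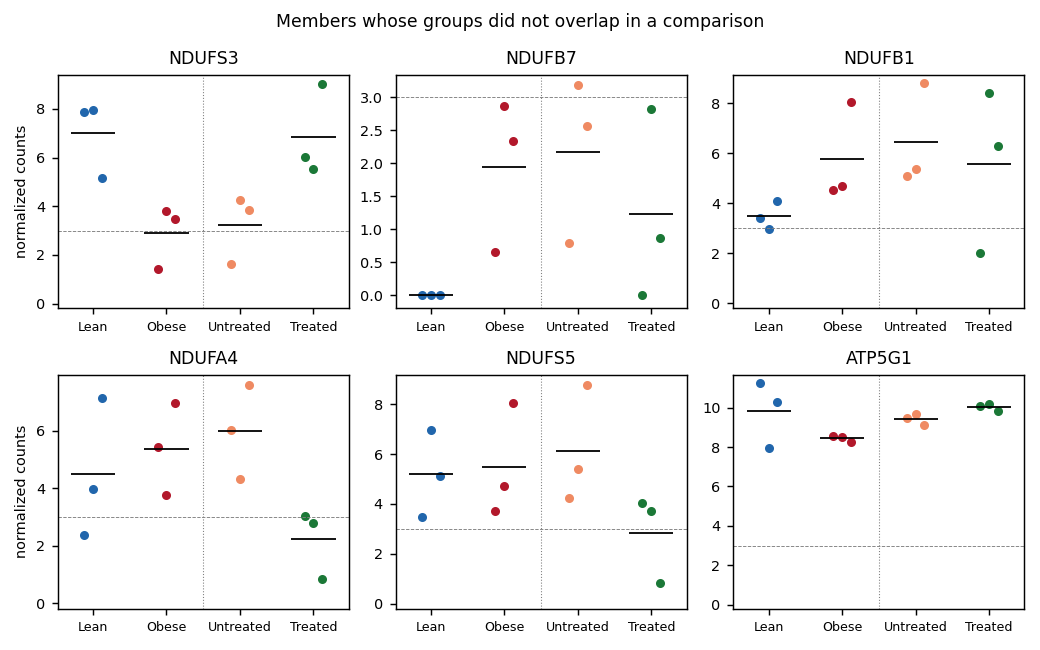
Normalized counts per library (points) and group means (bars) for 6 genes whose groups did not overlap in a comparison, with Lean and Obese from the first comparison and Untreated and Treated from the second, separated by a dotted line because they were normalized separately. The dashed line marks 3 normalized counts: all values of NDUFB7 in the first comparison lie under it, while NDUFS3 is at 5.16 to 7.95 in Lean, 1.41 to 3.81 in Obese, 1.64 to 4.26 in Untreated and 5.51 to 9.03 in Treated.

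Complex I oxidizes NADH and passes electrons to ubiquinone. Summed over its 37 genes, 5hmC was 261, 272 and 222 in Obese 1, 2 and 3 against 308, 243 and 263 in Lean 7, 8 and 9, which overlapped. The means were 251.5 ± 26.1 and 271.3 ± 33.1 (SD, n = 3). NDUFS1, which carries iron-sulfur clusters of the electron path, was 8.98, 21.0 and 10.8 against 20.2, 16.9 and 12.4, a log2 ratio of -0.28 within the spread of either group. NDUFV2, an iron-sulfur subunit of the NADH module, was 7.75, 6.61 and 9.33 against 8.85, 5.96 and 1.06. Its lowest value was Lean 9 and the other libraries overlapped. NDUFV1, which binds NADH and FMN, was 5.63, 3.79 and 1.33 in Obese-MSCs and 2.22, 0.991 and 1.03 in Lean-MSCs, with a log2 ratio of 1.34 and overlapping groups. NDUFS7 and NDUFS8, the iron-sulfur subunits nearest the quinone, stayed at 3.07 or less in every library. NDUFAB1, the mitochondrial acyl carrier protein that also sits in complex I, was 0.578, 4.79 and 3.50 against 3.42, 4.97 and 3.09, and the groups overlapped. Across the 15 genes of the complex that passed the filter, 6 had higher and 9 lower means in Obese-MSCs, with a median log2 ratio of -0.25 and a range from -1.27 to 0.77.

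Complex II, succinate dehydrogenase, is the only complex made wholly of nuclear-encoded subunits. In the comparison of diets, all values of its 4 genes were 5.07 normalized counts or more. Its summed 5hmC was 93.3, 96.7 and 90.8 in Obese 1, 2 and 3 and 101, 77.4 and 67.8 in Lean 7, 8 and 9, so that the Obese libraries lay inside the range of the Lean ones. The means were 93.6 ± 2.96 and 82.2 ± 17.2 (SD, n = 3). SDHB, the iron-sulfur subunit, was 37.2, 42.7 and 40.03 in Obese-MSCs and 57.0, 33.8 and 16.5 in Lean-MSCs. The Lean libraries therefore differed among themselves by more than the groups did. SDHC, a membrane anchor, was 29.5, 27.5 and 32.8 against 27.1, 20.8 and 28.7, a log2 ratio of 0.23 (limma adjusted p of 0.911). SDHD, the other anchor, was 18.4, 11.4 and 5.07 against 5.81, 6.94 and 14.3. SDHA, the flavoprotein that oxidizes succinate, was 8.25, 15.2 and 12.9 against 11.3, 15.9 and 8.25. All 4 genes had higher means in Obese-MSCs, with log2 ratios from 0.04 to 0.36, but none had groups that separated, and the signs of SDHA, SDHB and SDHD changed when a single library was left out. For complex III, which passes electrons from ubiquinol to cytochrome c, only the accessory subunits UQCR10 and UQCRB were measured. UQCR10 was 8.08, 0.878 and 5.84 in Obese-MSCs and 2.299, 3.98 and 2.06 in Lean-MSCs, and UQCRB lay at 2.98 or less in all of these libraries.

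Complex IV, cytochrome c oxidase, reduces oxygen to water. The sums over its 10 genes were 85.3, 73.9 and 74.2 in Obese 1, 2 and 3 against 88.99, 88.4 and 75.05 in Lean 7, 8 and 9, and they overlapped. NDUFA4L2 alone made up 57.1% of the sum over the libraries of both groups. NDUFA4L2 is the paralog of the complex IV subunit NDUFA4 and is known for its induction by hypoxia. It was 50.7, 44.5 and 41.4 in Obese-MSCs and 43.1, 50.6 and 47.2 in Lean-MSCs, with a log2 ratio of -0.04 and a limma adjusted p of 0.990. NDUFA4 itself was 5.43, 3.76 and 6.96 against 2.37, 3.97 and 7.16. Neither gene of this pair had groups that separated. Of the other isoform pair with both genes measured, COX7A1, the form of striated muscle, was 0, 0 and 1.12 in Obese-MSCs and 1.22, 5.97 and 1.05 in Lean-MSCs. COX7A2, the widely expressed form, was 2.41, 0.930 and 1.22 against 2.20, 0 and 1.03. Both pairs of means were under 3 normalized counts, so no difference between the isoforms was detectable at this depth. COX6A1 was 6.34, 6.67 and 1.39 against 4.46, 4.97 and 0.0188, with Obese 3 and Lean 9 the low libraries of their groups. COX6C was 3.92, 2.83 and 3.54 against 7.71, 1.98 and 3.095. COX5B did not exceed 2.25 in any library.

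Complex V is the ATP synthase. Its 15 genes summed to 151, 138 and 129 in Obese 1, 2 and 3 against 172, 124 and 127 in Lean 7, 8 and 9, means of 139.4 ± 11.0 and 141.1 ± 26.6 (SD, n = 3). ATP5A1, the alpha subunit of the catalytic head, was 23.5, 23.8 and 14.4 in Obese-MSCs and 31.5, 26.8 and 18.5 in Lean-MSCs, with a log2 ratio of -0.32. ATP5B, the beta subunit that holds the catalytic sites, was 14.1, 13.3 and 10.7 against 33.2, 11.9 and 5.21. Its log2 ratio of -0.40 rested on Lean 7 and became 0.57 without that library. ATP5C1, the gamma subunit of the rotating shaft, was nearly level at 6.92, 7.58 and 8.21 against 8.95, 5.95 and 6.17. ATP5O, the stalk subunit that joins head and membrane sector, was 11.2, 4.68 and 7.12 against 10.2, 11.9 and 13.3, a log2 ratio of -0.63 (limma adjusted p of 0.800). ATP5G1, ATP5G2 and ATP5G3 encode the same mature c subunit of the rotor ring. ATP5G1 was 8.54, 8.53 and 8.27 against 11.2, 7.94 and 10.3. ATP5G2 was 20.3, 14.1 and 23.3 against 21.4, 15.9 and 21.6. ATP5G3 was at 3.39 or less in every library. None of these 3 genes had groups that separated. ATP5L, subunit g of the membrane sector, had the smallest unadjusted limma p among the 45 genes that passed the filter, 0.0239, and is named for that reason. It was 16.9, 22.8 and 18.9 in Obese-MSCs and 21.0, 6.94 and 5.18 in Lean-MSCs, so Lean 8 and Lean 9 were low while Lean 7 lay among the Obese libraries. Its limma adjusted p was 0.694.

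The NDUFAF assembly factors build complex I without staying in it. Their sum was 57.8, 55.0 and 46.3 in Obese 1, 2 and 3 against 66.7, 53.6 and 66.7 in Lean 7, 8 and 9. None of the 8 was called, beside 4.5% of all genes. NDUFAF7, a methyltransferase of the mitochondrial matrix and the factor with the smallest unadjusted limma p of the 6 that passed the filter, was 22.9, 14.2 and 14.3 against 35.9, 20.8 and 23.6, with a log2 ratio of -0.64 and a limma adjusted p of 0.762. ATP5S and ATP5SL, joined here by symbol only, had the only group sum that did not overlap between the diets. It was 32.6, 31.2 and 36.4 in Obese-MSCs against 23.8, 22.8 and 29.8 in Lean-MSCs. The ratio of 1.31 stayed between 1.25 and 1.43 without each library. Sums were also compared for complexes I to V and the assembly factors, and 11.8% of all single genes separated by diet. Neither gene separated alone, ATP5S being 10.2, 7.55 and 9.41 against 4.61, 7.95 and 6.17 and ATP5SL 22.4, 23.7 and 27.0 against 19.2, 14.9 and 23.6. The span of ATP5SL covers 158538 bp at chr6:49404218-49562755 and overlaps 6 other annotated genes.

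**Figure D3:**
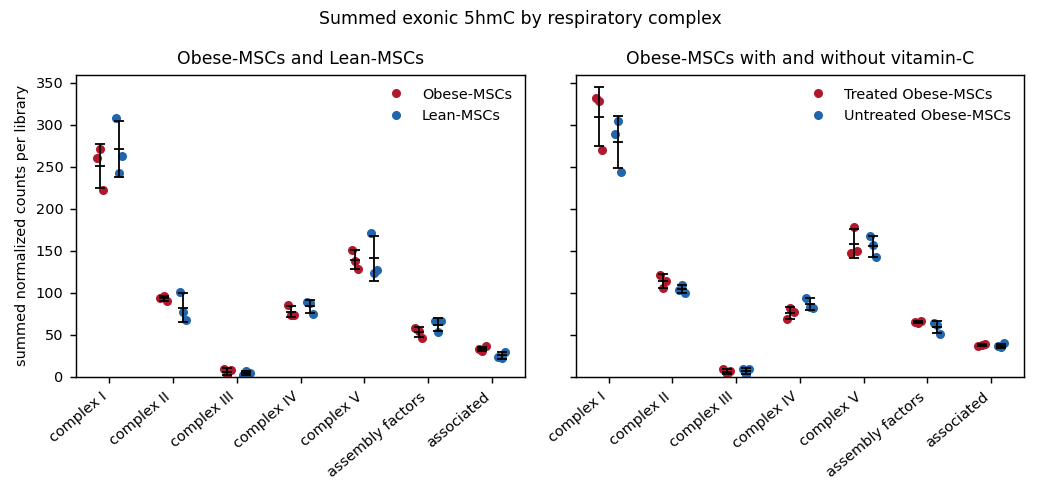
Summed normalized counts per library (points) for each respiratory complex, the NDUFAF assembly factors and the associated proteins ATP5S and ATP5SL, with mean and SD of 3 libraries (black bars), for Obese-MSCs and Lean-MSCs (left) and for treated and untreated Obese-MSCs (right). The groups overlap for every sum except that of the associated proteins on the left, at 31.2 to 36.4 in Obese-MSCs and 22.8 to 29.8 in Lean-MSCs.

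The second question was whether vitamin-C changed 5hmC over the same genes in Obese-MSCs. The sum over the 77 genes was 782, 799 and 725 in Treated 4, 5 and 6 and 765, 755 and 669 in Untreated 1, 2 and 3. The groups overlapped, with 768.5 ± 39.1 in treated and 729.3 ± 52.8 in untreated MSCs (SD, n = 3), a ratio of 1.05 that stayed between 1.01 and 1.08 without each library. Of the 43 genes that passed the filter, 25 had higher and 18 lower means after treatment, with a median log2 ratio of 0.09 beside 0.00170 over all genes. The median was 0.02 without Treated 4 and 0.01 without Treated 5. Its sign changed only without Untreated 3, where it was -0.01.

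By the same criteria, 1 of the 77 genes was called, NDUFA4, low after treatment, while 1.92% of all genes were called, 1.11% high and 0.806% low. The 6 values separated by group in 5 of the 77 genes (6.49%), against 5.91% of all genes. NDUFS3 and ATP5G1 were higher after treatment in this sense (3.24% of all genes), and NDUFA4, NDUFS5 and NDUFB5 lower (2.67% of all genes). NDUFB5 is named because its values separated. With limma none of the 43 genes had an adjusted p of 0.05 or an unadjusted p of 0.05, beside 0.974% of all genes at an unadjusted p of 0.05, and the smallest unadjusted limma p among them was 0.0820.

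NDUFA4 was long counted as a complex I subunit and is now assigned to complex IV. It was 3.02, 2.79 and 0.834 in Treated 4, 5 and 6 and 6.04, 4.34 and 7.61 in Untreated 1, 2 and 3. Every treated library was below every untreated one, with means of 2.21 ± 1.20 and 5.997 ± 1.64 (SD, n = 3), a log2 ratio of -1.44 and an exact permutation p of 0.1. The mean over the 6 libraries was under the limit of the filter, 4.17 normalized counts, so limma gave no value. The log2 ratio stayed between -1.73 and -1.05 without each library, and the call was kept without Untreated 2 (-1.62) and lost without Treated 4 (-1.73), Treated 5 (-1.64), Treated 6 (-1.05), Untreated 1 (-1.43) or Untreated 3 (-1.23). NDUFA4 was the single gene of the 77 without a unique position. Its paralog NDUFA4L2 was 40.2, 50.0 and 54.7 in treated and 56.2, 50.4 and 45.5 in untreated MSCs, a log2 ratio of -0.07.

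NDUFS3 was 6.04, 5.51 and 9.03 in Treated 4, 5 and 6 and 1.64, 4.26 and 3.83 in Untreated 1, 2 and 3. The groups did not overlap, with means of 6.86 ± 1.90 and 3.24 ± 1.41 (SD, n = 3), a log2 ratio of 1.08, an exact permutation p of 0.1 and a limma adjusted p of 1. The gene was not called at the unadjusted p of 0.05, although it was after quantile normalization. The untreated libraries that serve as controls here are the same Obese libraries that stood below Lean-MSCs in the first comparison, so a low value in them enters both differences, and the log2 ratios of -1.27 and 1.08 are not independent. NDUFS5, an accessory subunit of complex I, was 4.02, 3.73 and 0.814 in treated and 4.22, 5.38 and 8.78 in untreated MSCs, with a log2 ratio of -1.10, an exact permutation p of 0.1 and a limma adjusted p of 1. Its log2 ratio was -0.66 without Treated 6 and -0.75 without Untreated 3, the libraries with its lowest and highest values. ATP5G1 separated by a small margin, at 10.1, 10.2 and 9.83 against 9.50, 9.65 and 9.12, a log2 ratio of 0.09. NDUFB5, an accessory subunit, was under 3 in all 6 libraries.

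**Figure D4:**
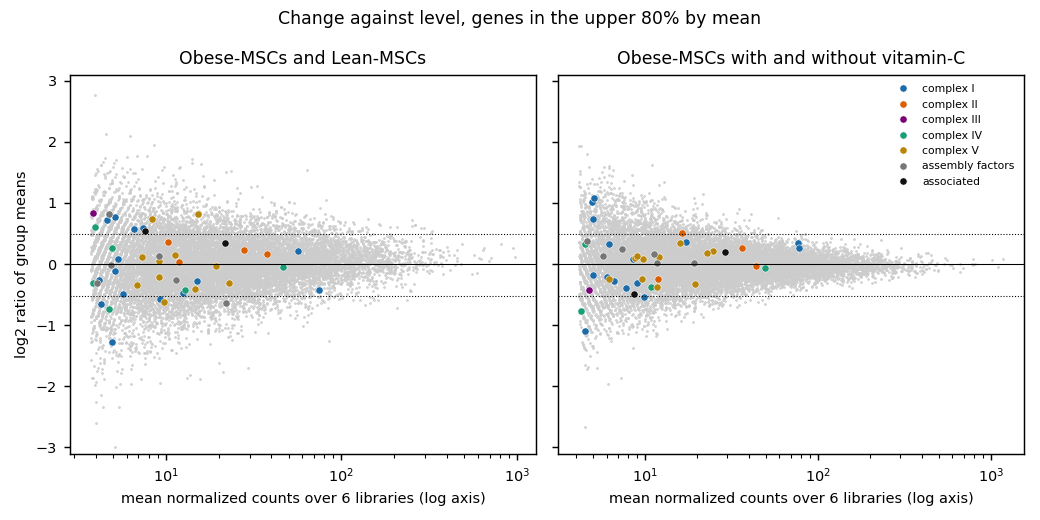
Log2 ratio of group means (vertical axis) against the mean normalized counts of 6 libraries (horizontal axis, logarithmic) for genes that passed the filter, all genes in grey and oxidative phosphorylation genes coloured by complex, with dotted lines at ratios of 1.4 and 0.7. The coloured points lie within the grey cloud on both sides of 0, and those past the dotted lines are mostly genes with means under 10.

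The spread of the ratios narrowed with the level. In the comparison of diets, 14 of the 27 genes with means under 10 normalized counts had a ratio past 1.4 or 0.7 regardless of any test (51.9%), against 36.3% of all genes in that range, while 2 of the 18 genes with means of 10 or more did (11%), against 15.8% of all genes. After vitamin-C these counts were 6 of 24 (25%, against 30.1%) and 1 of 19 (5.26%, against 6.41%).

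Within complex I, the sums were 332, 328 and 270 in treated and 289, 305 and 245 in untreated MSCs. NDUFS1 was 15.1, 28.9 and 14.2 against 10.2, 23.4 and 11.9. It spread more within a group than between the groups. NDUFAB1 was 9.05, 4.57 and 6.24 after treatment and 0.743, 5.30 and 3.83 without it, a log2 ratio of 1.01 with overlapping groups and a limma adjusted p of 1. NDUFV1 was 0.000903, 0 and 1.85 in treated and 6.16, 4.29 and 1.55 in untreated MSCs. Treated 4 and 5 were near 0 and Treated 6 lay just above Untreated 3, so the groups overlapped and the gene was not called, with an exact permutation p of 0.2. NDUFV2 was 11.06, 6.47 and 2.54 against 8.62, 7.54 and 10.2. NDUFS7 was 2.02, 0.864 and 6.42 against 2.59, 2.16 and 2.60, and NDUFS8 stayed at 2.78 or less.

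The succinate dehydrogenase genes summed to 122, 105 and 115 in treated and 104, 109 and 100.1 in untreated MSCs, overlapping at Treated 5. SDHC was 47.3, 39.8 and 33.0 against 32.8, 31.1 and 36.1, a log2 ratio of 0.26. SDHA was 12.1, 16.6 and 28.9 against 9.34, 17.1 and 14.2, a log2 ratio of 0.50 that dropped to 0.08 without Treated 6. SDHB was nearly equal at 42.2, 40.7 and 48.4 against 41.4, 48.2 and 44.1. SDHD was 20.1, 8.27 and 4.28 against 20.2, 12.9 and 5.72. None of the 4 genes separated by treatment. UQCR10 of complex III was 4.03, 1.79 and 6.36 against 8.82, 1.17 and 6.41.

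The complex IV sums were 68.4, 82.5 and 77.8 in treated and 94.4, 83.8 and 81.7 in untreated MSCs, overlapping only through Treated 5. Their means were 76.2 ± 7.19 and 86.6 ± 6.86 (SD, n = 3). NDUFA4L2 alone made up 60.8% of the sum over the libraries of both groups. COX6A1 was 2.02, 6.60 and 0.805 against 6.98, 7.46 and 1.63, and COX6C was 4.02, 3.73 and 0.814 against 4.34, 3.24 and 3.90. Treated 6 was the low library for both. COX7A1 was 0.00292, 1.83 and 4.59 against 0, 0.00593 and 1.20, while COX7A2 was at 2.64 or less and COX5B at 2.42 or less, all with means under 3. The complex V sums were 148, 178 and 150.1 against 167, 157 and 142, and the groups overlapped. ATP5A1 was 28.2, 24.0 and 27.8 in treated and 26.0, 26.8 and 16.0 in untreated MSCs, where Untreated 3 was low. ATP5B was 20.1, 23.2 and 10.6 against 15.6, 15.01 and 11.9. ATP5C1 was 8.05, 9.26 and 9.87 against 7.73, 8.58 and 9.03, and ATP5O was 9.05, 5.46 and 13.6 against 12.3, 5.44 and 7.86. All of these overlapped between the groups. ATP5G2 was 17.1, 27.8 and 27.8 against 22.5, 16.2 and 25.6, while ATP5G3 was at 3.65 or less. The NDUFAF sum was 65.4, 63.8 and 66.3 against 64.1, 62.1 and 51.1, a ratio of 1.10 that was 1.03 without Untreated 3. The log2 ratios of all 6 factors that passed the filter were above 0, from 0.01 to 0.38, beside 50.2% of all genes. The signs of NDUFAF1, NDUFAF3, NDUFAF6, NDUFAF7 and NDUFAF8 changed when a single library was left out. The sum of ATP5S and ATP5SL, which separated by diet, was 37.2, 37.9 and 39.5 in treated and 36.3, 35.4 and 40 in untreated MSCs and overlapped.

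Genes that serve oxidative phosphorylation from outside the complexes were counted as lists. Of 29 assembly factors, which include the 8 NDUFAF genes, TACO1, a translational activator of a mitochondrially encoded complex IV subunit, was called low in Obese-MSCs, at 6.26, 5.69 and 4.78 against 6.85, 7.94 and 9.23 in Lean-MSCs, a log2 ratio of -0.52 (limma adjusted p of 0.880). This was 1 of 29, beside 2.43% of all genes called low. After vitamin-C the only call among them was ATPAF2, which chaperones the alpha subunit of ATP synthase, at 1.01, 1.85 and 1.79 against 0 in each untreated library, all under 3, which was 1 of 29 beside 1.11% of all genes called high. Of 17 electron carriers, coenzyme Q enzymes and other feeds into the chain, COQ4 and COQ9, both of coenzyme Q synthesis, were called low in Obese-MSCs, 2 of 17 beside 2.43% of all genes. COQ9 was 11.7, 11.4 and 10.6 against 20.3, 14.9 and 23.6, a log2 ratio of -0.80 (limma adjusted p of 0.703), and COQ4 was 3.12, 0.908 and 4.58 against 5.71, 5.96 and 8.20, a log2 ratio of -1.21 (limma adjusted p of 0.733). The median log2 ratio of the 13 of these 17 genes that passed the filter was -0.01. The values of 2 other genes of this list separated in the opposite direction without being called, and both are named for that reason. This was 2 of 17, beside 5.7% of all genes that separated in this direction. ETFA, which carries electrons from fatty acid oxidation, was 13.8, 23.8 and 12.02 in Obese-MSCs against 2.44, 11.9 and 5.15 in Lean-MSCs, a log2 ratio of 1.35 (limma adjusted p of 0.668). COQ8A, a kinase-like protein of coenzyme Q synthesis, was under the filter. None of the 17 was called after vitamin-C, beside 1.92% of all genes. COQ9 was 13.1, 20.5 and 12.4 in treated and 13.0, 12.9 and 11.7 in untreated MSCs. None of the 18 regulators of mitochondrial biogenesis and none of the 13 other tricarboxylic acid cycle enzymes was called in either comparison. Of all genes, 4.5% were called by diet and 1.92% after vitamin-C. The median log2 ratios of the regulators and of the cycle enzymes were 0.11 and 0.26 by diet and -0.05 and -0.02 after vitamin-C. The 13 subunits encoded by mitochondrial DNA were not analysed here.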

How the data were processed

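For the 9 hMeDIP-seq libraries the authors mapped reads to porcine susScr 11.1 (Bowtie2 2.3.3.1), dropped duplicates (Picard 1.67), obtained exonic counts per gene (HTSeq 0.9.1) and normalized these in edgeR 3.28.1, as the paper and the submitters' processing notes state. The deposited values are a normalized 5hmC signal per gene and library, fractional and never negative, in a table for each comparison. In the one for vitamin-C, 645 residues around 0 were set to 0 and 25 gene names had become dates. Whole reads could not be recovered, since between 39.5% and 100% of values from 0.3 to 10 lay within 0.1 of a whole multiple of the library's step, so no test for counts was run, no counting interval is given and the spread of 3 libraries is the only error. All columns were used.

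Calls used a two-sided equal-variance test per gene on the deposited values, thresholds in the text. limma 3.58.1 in R 4.3.3 was fitted with a trend to log2(value + 1) after a filter that kept the upper 80% of genes by mean, and p-values were adjusted by Benjamini-Hochberg. Its pseudocount of 1 shrinks changes of low genes, while the log2 ratios printed are of group means without one. Permutation tests were two-sided and exact over 20 arrangements. Python 3.11.15, numpy 2.4.6, pandas 2.3.3, scipy 1.17.1 and matplotlib 3.10.9 were used. The procedure was tested on simulated data. That test is not used as evidence that changes would be detected at the low levels of many oxidative phosphorylation genes. Positions are gene spans of RefSeq on Sscrofa11.1, matched by symbol. Exon annotation was not used here.

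The genes, lists and tests were chosen with earlier results of these data known. Named with values were genes that met the criteria, the 3 highest and 3 lowest ratios among separated genes that passed the filter, catalytic and structural subunits listed by role, and isoform pairs. The members of other pathway lists were named where called, and ETFA and COQ8A because their values separated. The surface genes of MSCs were named whatever their values. Alternatives were other thresholds, scales, filters, pseudocounts, size factors, quantile normalization, limma without a trend and each library left out. A gene of complex I is not reported here by itself and stays in the sums and counts.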

Additional observations from a re-analysis of the deposited data

How the results depend on the processing

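In Obese-MSCs versus Lean-MSCs, the 2 calls became 1 after quantile normalization (NDUFS3), 0 at a p threshold of 0.01 and 0 with both group means required to be over 3, and numbered 1 to 4 when a library was left out. After vitamin-C, the 1 call became 2 after quantile normalization (NDUFA4 and NDUFS3), 0 at a p threshold of 0.01 and 0 with both means over 3, and numbered 0 to 3 when a library was left out. With limma no gene of the set passed the adjusted threshold under any alternative. Over all genes there was 1 limma call by diet without Obese 1 and 1 without Obese 2, and 0 in every other alternative of either comparison, a range of 0 to 1 without single libraries. The median log2 ratio by diet was -0.16 over genes in the upper 50% by mean, and lay between -0.06 and 0.02 without single libraries. After vitamin-C it was 0.22 in the upper 50%, and lay between -0.01 and 0.13 without single libraries, where it was -0.0097 without Untreated 3. Of 54 log2 ratios of named genes, 31 kept their sign under size factors, quantile normalization and each library left out, 23 changed sign when a library was left out, and none changed sign under rescaling. No paired analysis was possible because the groups compared share no replicate numbers and the labels do not tie a treated culture to an untreated one. The paper states that third-passage Obese-MSCs were grown on without or with vitamin-C, so treated and untreated cultures may share pigs. In that case the unpaired tests used here would not remove the spread between pigs, which was not tested. Values are relative within a comparison, so a change of 5hmC shared by all genes would not be visible, and genes at 3 normalized counts or less cannot show a fold at this depth.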
